A study of Mus musculus with 24 samples.

Results

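The 10 genes described here encode basic helix-loop-helix (bHLH) proteins that pair with the muscle regulator MyoD or oppose it. They are the E protein genes Tcf3 and Tcf12, the inhibitor genes Id1, Id2 and Id3, the repressor genes Twist1, Twist2 and Msc (musculin), and the hypoxia-linked repressor genes Bhlhe40 and Bhlhe41. They were chosen by name, and all 10 have a row among the 24043 gene symbols of the deposited table. RNA-seq was performed on C2C12 cells, a clonal mouse myoblast line that stands for muscle precursors in culture. The cells were grown in medium with 10% fetal bovine serum or switched to differentiation medium with 2% horse serum and an insulin, transferrin and selenium supplement, at 21% oxygen (normoxia) or 2% oxygen (hypoxia), as 4 groups of 2 biological replicates, named A and B. How many days the cells spent in differentiation medium or in hypoxia is not given in the sources used here.

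MyoD activates muscle genes by binding E-boxes, short DNA elements, as a heterodimer with an E protein. Id proteins lack the basic region that contacts DNA, so they take E proteins out of circulation. Twist proteins and musculin also dimerise with E proteins, and they hold muscle genes back in precursor cells. Bhlhe40 and Bhlhe41 bind E-boxes as repressors, act in the circadian clock, and are known targets of the hypoxia-inducible factor HIF.

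Promoter sequences are shown for 3 genes whose response to oxygen differed below. Promoter sequences from RefSeq (build GRCm38.p6) were matched for 7 of the 10 genes, and those of Bhlhe40, Id1 and Msc were not used here. Each sequence is the 250 bases before the annotated start, 5′ to 3′ on the gene's strand, and capitals mark matches on either strand to the motifs searched. These were CACGTG, the E-box that Bhlhe40 and Bhlhe41 bind, which contains on both strands ACGTG, a form of the hypoxia response core, also searched alone. Other forms of that core, such as GCGTG, were not searched. CAGCTG was searched as an E-box of MyoD, and CAGGTG as an E-box of E proteins and of the Zeb and Snail repressors. The last motif, GGCGCC, is a GC-rich element bound by SMAD proteins.
Bhlhe41, chr6:145865421-145865670, minus strand: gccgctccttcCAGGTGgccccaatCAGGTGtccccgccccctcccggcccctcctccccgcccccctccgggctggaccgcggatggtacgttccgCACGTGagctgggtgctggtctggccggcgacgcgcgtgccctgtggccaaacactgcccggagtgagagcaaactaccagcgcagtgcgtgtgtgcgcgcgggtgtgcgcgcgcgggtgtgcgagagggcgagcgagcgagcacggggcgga
Id2, chr12:25096093-25096342, minus strand: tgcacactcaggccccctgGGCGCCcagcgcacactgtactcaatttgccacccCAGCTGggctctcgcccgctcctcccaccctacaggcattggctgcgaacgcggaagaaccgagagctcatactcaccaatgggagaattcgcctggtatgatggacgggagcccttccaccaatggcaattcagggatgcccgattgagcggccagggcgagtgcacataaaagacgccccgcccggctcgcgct
Id3, chr4:136143572-136143821, plus strand: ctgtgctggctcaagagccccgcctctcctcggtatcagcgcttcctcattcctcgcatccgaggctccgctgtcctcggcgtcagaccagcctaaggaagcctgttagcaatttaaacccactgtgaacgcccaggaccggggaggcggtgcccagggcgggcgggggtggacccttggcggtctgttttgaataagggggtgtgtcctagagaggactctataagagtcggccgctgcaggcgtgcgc
The Bhlhe41 window held CACGTG once, 153 bases before the start site, and CAGGTG in 2 places. The Id2 window held 1 CAGCTG, 196 bases before the start, and GGCGCC once, 231 bases before it, and the letters searched were not found in the Id3 window. Among all 32851 promoter windows of the same length, ACGTG was held by 16.6%, and the longer CACGTG by 6.02%. The shares were 13% for CAGCTG and 17.2% for CAGGTG, and that of GGCGCC was 9.59%. A match describes the sequence and is not evidence of binding.

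Levels are given in FPKM, counts of sequenced fragments normalised for transcript size and library size. Total FPKM ranged from 480018 to 534167 per library, and relative depth from 0.633 to 1, the 2 extremes being replicates B and A of hypoxic differentiation medium. Myogenic identity was checked with marker lists. All 6 myoblast markers were detected, and their sum ran from 142 FPKM in a hypoxic differentiation library to 1353 in a normoxic one. The 6 myotube markers summed to 7031 to 7042 FPKM in normoxic differentiation medium and to 8.66 to 15.3 in hypoxic differentiation medium. In growth medium they summed to 21.8 to 28.8 FPKM in normoxia and 2.95 to 3.26 in hypoxia. Differentiation therefore names below the switch to differentiation medium, not a state that the cells reached. All 4 endothelial and all 4 epithelial markers stayed under 1 FPKM, as did Ptprc and Csf1r of the macrophage list, while Cd68 of the same list averaged 34.3 FPKM in hypoxic differentiation medium and 2.11 to 3.19 in the other groups. The fibroblast, osteoblast and adipocyte lists summed to 3.54 to 25.0 FPKM, except for the osteoblast list in normoxic differentiation medium (85.8 to 104). There Bglap averaged 84.3 FPKM, while Sp7, Ibsp and Alpl stayed under 1. Runx2 of that list averaged 10.3 FPKM there, against 16.2 in normoxic growth medium. Replicates of hypoxic differentiation medium differed more than 2-fold in FPKM + 1 at 613 of 12389 tested genes, against 56 to 71 in the other groups. Adding 1 leaves out some 2-fold differences at low FPKM. In bulk RNA, fewer cells of a type and less RNA per cell cannot be told apart.

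Changes were tested with limma on log2(FPKM + 1) over the 12389 genes whose mean reached 1 FPKM in some group, and a gene was called at a Benjamini-Hochberg adjusted p under 0.05. Of the 10 genes, 9 were tested, and Twist1 was too low. Msc was tested only because its mean reached 1.06 FPKM in normoxic differentiation medium, the group where it is highest, so the filter favours a lower value elsewhere and its calls are not read as support in the counts that follow. In normoxia, differentiation medium lowered 6 of the 9 (Id2, Id3, Tcf3, Tcf12, Twist2 and Bhlhe41) and raised 1 (Bhlhe40). Over all tested genes 66.5% were called in this comparison, 41% as lower and 25.5% as higher. In hypoxia the same change of medium lowered 6 of the 9 (all 3 Id genes, Tcf12, Twist2 and, with that condition, Msc) and raised 1 (Bhlhe41), against 40.9% of all genes called, 17.6% lower and 23.3% higher. That count fell from 7 to 4 when either replicate of hypoxic growth medium was left out. Hypoxia in growth medium lowered 6 of the 9 (Id1, Id3, Tcf3, Tcf12, Twist2 and, with that condition, Msc) and raised 1 (Bhlhe40), against 41.4% called, 28% lower and 13.5% higher. In differentiation medium hypoxia lowered 4 (Id1, Id3, Tcf12 and, with that condition, Msc) and raised 4 (Bhlhe40, Bhlhe41, Twist2 and Tcf3), against 65.2% called, 27.7% lower and 37.5% higher.

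The median log2 change of the 9 genes was -0.66 and -0.50 for differentiation in normoxia and hypoxia, and -0.44 and -0.22 for hypoxia in growth and differentiation medium. The medians over all tested genes were -0.20, 0.065, -0.14 and 0.15 in the same order. Msc, with the condition above, is among the 9, and the median of -0.44 is its own value. Scaling mattered for small changes. Median-of-ratios scaling moved the median of all genes to 0.030 for differentiation in normoxia, where the split of the 7 calls became 2 higher and 5 lower. Msc, with the same condition, was among the higher calls there. For hypoxia in growth medium the split became 2 higher and 5 lower under that scaling, and 3 higher and 5 lower under upper-quartile scaling. Of all genes called, the share called higher went from 38.4% to 53.6% for differentiation in normoxia under median-of-ratios scaling, and from 57.5% to 46.5% for hypoxia in differentiation medium. For hypoxia in growth medium it went from 32.6% to 43.4% under that scaling and to 49.3% under upper-quartile scaling.

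**Figure D1:**
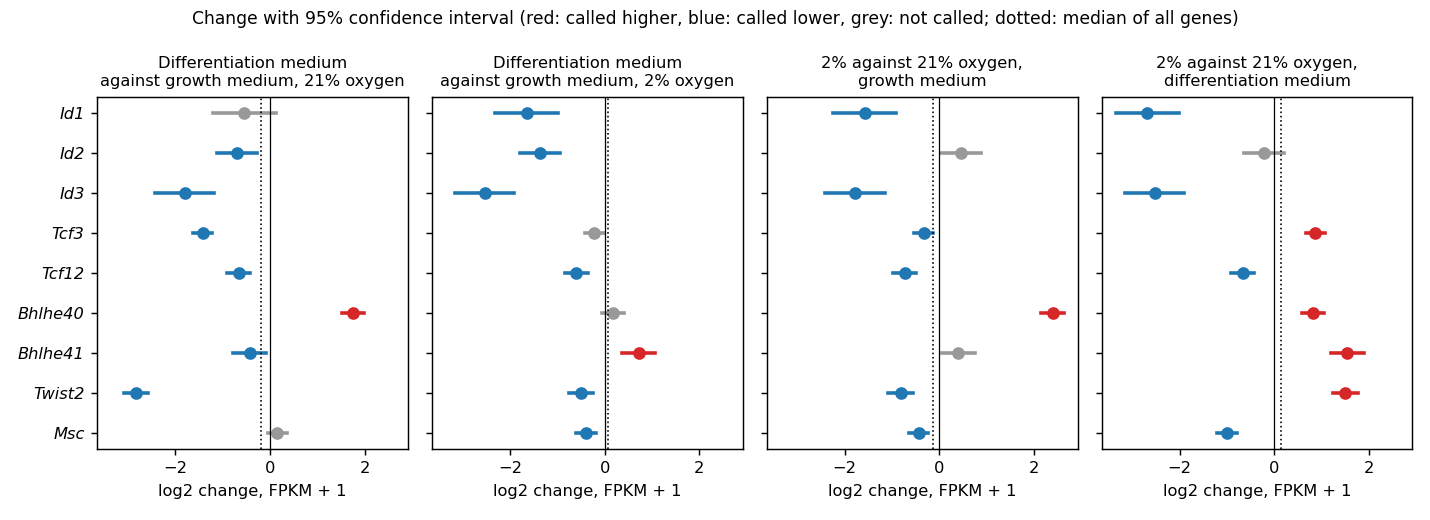
Log2 change of FPKM + 1 (horizontal axis) with its 95% confidence interval for the 9 tested genes (vertical axis) in 4 comparisons. Red marks genes called higher, blue genes called lower and grey genes not called, and the dotted line is the median of all tested genes. Id3 and Tcf12 were called lower in all 4 panels, whereas Tcf3, Twist2 and Bhlhe41 were called on different sides of 0 in different panels.

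Id3 was the most abundant of the 10 in 3 of the 4 groups and fell with each condition. It was at 444 and 359 FPKM (replicates A and B) in normoxic growth medium, 117 and 112 in differentiation medium under normoxia, 116 and 114 in growth medium under hypoxia, and 13.8 and 26.1 in differentiation medium under hypoxia. The groups did not overlap in any of the 4 comparisons, and the single switch of medium or of oxygen left nearly the same level. Id3 was 3.52-fold lower after differentiation in normoxia (log2 change -1.80 ± 0.26 SE, adjusted p 0.000951) and 5.78-fold lower in hypoxia (-2.54 ± 0.26, adjusted p 0.000906). Hypoxia lowered it 3.49-fold in growth medium (-1.79 ± 0.26, adjusted p 0.0024) and 5.73-fold in differentiation medium (-2.53 ± 0.26, adjusted p 0.000196).

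Id1 was likewise highest in normoxic growth medium and lowest in hypoxic differentiation medium, at a lower level than Id3. Unlike Id3, it was lower after the switch of oxygen alone than after the switch of medium alone. It was at 78.3 and 62.1 FPKM in normoxic growth medium, 48.6 and 46.7 in differentiation medium under normoxia, 22.5 and 22.9 in growth medium under hypoxia, and 4.50 and 9.45 in differentiation medium under hypoxia. Every library of a group lay below those of the group before it. The drop in normoxia, 1.47-fold, did not pass the threshold (-0.54 ± 0.28, adjusted p 0.128), and its 95% interval ran from -1.21 to 0.13. It passed when the fit held only the libraries compared (adjusted p 0.00854), under array weights (0.0142), and without replicate A (0.00558) or B (0.00469) of hypoxic differentiation medium. Id1 fell 3.26-fold on differentiation in hypoxia (-1.65 ± 0.28, adjusted p 0.0048). With hypoxia it fell 3.09-fold in growth medium (-1.58 ± 0.28, adjusted p 0.00499) and 6.83-fold in differentiation medium (-2.68 ± 0.28, adjusted p 0.000197).

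Id2 had a different pattern across oxygen. It was at 62.1 and 59.9 FPKM in normoxic growth medium, 39.5 and 35.6 in differentiation medium under normoxia, 90.0 and 79.1 in growth medium under hypoxia, and 26.3 and 38.9 in differentiation medium under hypoxia. Both hypoxic growth libraries were above both normoxic ones, while the groups in differentiation medium overlapped. In growth medium the change of Id2 with hypoxia had a 95% interval of 0.039 to 0.88 around 0.46 and did not pass the threshold (adjusted p 0.077), whereas the intervals of Id1 (-2.24 to -0.91) and Id3 (-2.41 to -1.16) lay below 0. That Id2 value passed under median-of-ratios (0.58) and upper-quartile scaling (0.63), at adjusted p-values of 0.0164 and 0.0119. Array weights (0.0193), a fit of the compared libraries alone (0.00876) and leaving out replicate A (0.00646) or B (0.00564) of hypoxic differentiation medium also took it past the threshold. In differentiation medium its difference with hypoxia was not called (-0.22 ± 0.18, adjusted p 0.298, interval -0.64 to 0.20). There the value was 0.052 without replicate A of hypoxic differentiation medium, and -0.50 without replicate B, which passed (adjusted p 0.00684), as did -0.43 under median-of-ratios scaling (0.0303). Differentiation lowered Id2 in both oxygen levels, 1.63-fold in normoxia (-0.69 ± 0.18, adjusted p 0.0122) and 2.60-fold in hypoxia (-1.37 ± 0.18, adjusted p 0.00181). The normoxic call was lost without replicate A of normoxic growth medium (adjusted p 0.0608) or replicate B of normoxic differentiation medium (adjusted p 0.0801).

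In hypoxic differentiation medium replicate B had more of each Id transcript than replicate A. The proliferation genes Mki67 and Ccnb1 differed the same way, at 3.46 and 23.6 FPKM for Mki67 and at 2.35 and 15.7 for Ccnb1. Their part in the Id levels was not tested. With that replicate left out, the changes of Id1 and Id3 with hypoxia in differentiation medium were -3.14 and -2.96, and without replicate A they were -2.22 and -2.09, all past the threshold.

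**Figure D2:**
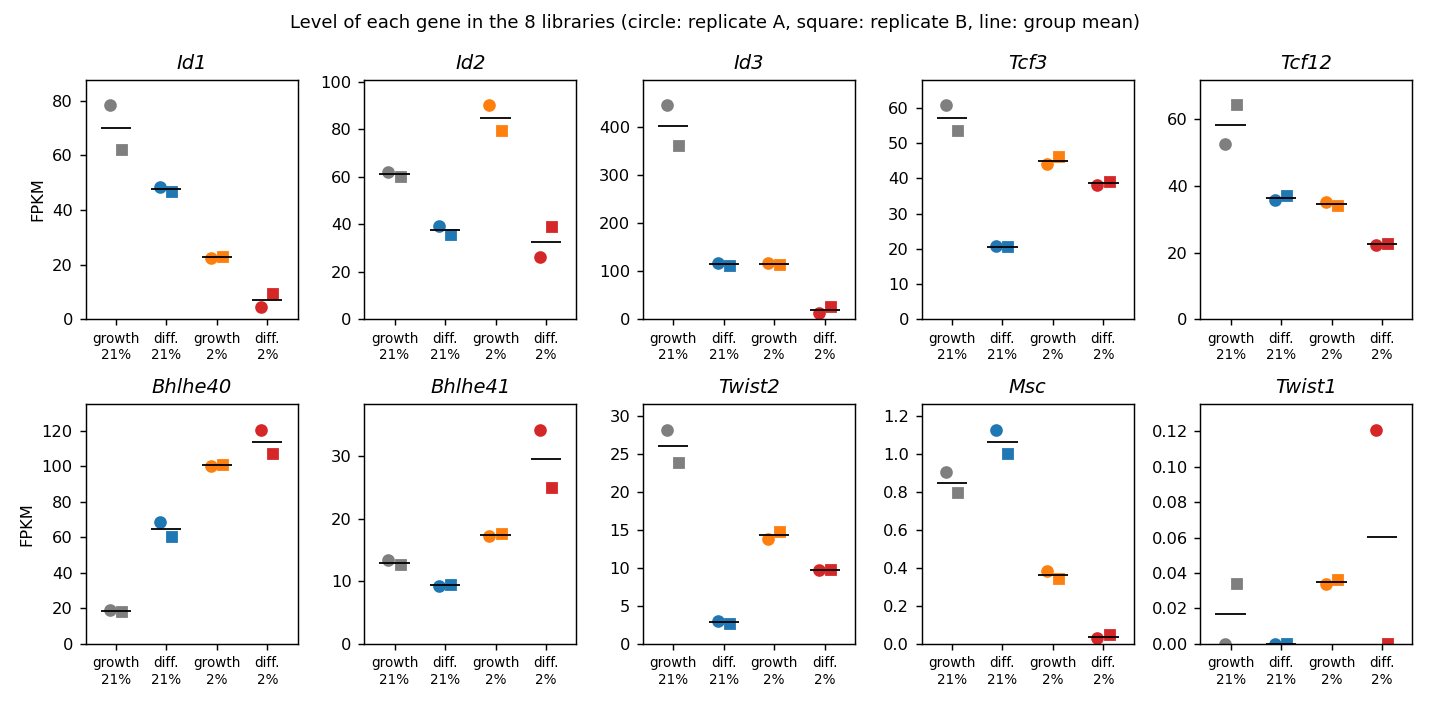
FPKM (vertical axis, from 0, with its own range for each gene) of the 10 genes in growth and differentiation (diff.) medium at 21% and 2% oxygen. Circles are replicate A, squares replicate B and lines the mean of the 2. Id1 and Id3 were lowest in differentiation medium at 2% oxygen, where Bhlhe40 and Bhlhe41 were highest, and Tcf3 and Twist2 were lowest in differentiation medium at 21% oxygen.

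The 2 E protein genes parted in normoxic differentiation medium. Tcf3 was at 60.7 and 53.4 FPKM in normoxic growth medium, 20.8 and 20.5 in differentiation medium under normoxia, 44.1 and 45.9 in growth medium under hypoxia, and 38.1 and 39.0 in differentiation medium under hypoxia. The lowest values were those of the normoxic differentiation libraries. Tcf3 fell 2.76-fold on differentiation in normoxia (-1.42 ± 0.083, adjusted p 1.6e-05). In hypoxia its change was -0.22 ± 0.083 and did not pass (adjusted p 0.0764, interval -0.42 to -0.020), but it passed under upper-quartile scaling (-0.31, adjusted p 0.0319) and without replicate A (adjusted p 0.0424) or B (0.0433) of normoxic growth medium. In differentiation medium Tcf3 was 1.87-fold higher in hypoxia than in normoxia (0.87 ± 0.083, adjusted p 0.000131). Its drop with hypoxia in growth medium (1.27-fold, -0.33 ± 0.083, adjusted p 0.0184) was lost under median-of-ratios (-0.22) and upper-quartile scaling (-0.16), at adjusted p-values of 0.105 and 0.191. It was also lost without replicate A of normoxic growth medium (adjusted p 0.0679) and without replicate A (0.114) or B (0.0723) of hypoxic growth medium.

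Tcf12, which encodes the E protein HEB, was at 52.6 and 64.0 FPKM in normoxic growth medium, 35.7 and 36.9 in differentiation medium under normoxia, 35.1 and 34.0 in growth medium under hypoxia, and 22.2 and 22.7 in differentiation medium under hypoxia. Like Id3, it was near one level after either single switch and lowest after both. The folds were 1.60 lower on differentiation in normoxia (-0.66 ± 0.10, adjusted p 0.00121) and 1.54 lower in hypoxia (-0.60 ± 0.10, adjusted p 0.00479). Hypoxia lowered Tcf12 1.69-fold in growth medium (-0.73 ± 0.10, adjusted p 0.00191) and 1.62-fold in differentiation medium (-0.67 ± 0.10, adjusted p 0.00116). The ratio of Tcf3 to Tcf12 was 1.15 and 0.833 in normoxic growth medium, 0.583 and 0.554 in differentiation medium under normoxia, 1.25 and 1.35 in growth medium under hypoxia, and 1.71 and 1.72 in differentiation medium under hypoxia. It was lowest in the 2 normoxic differentiation libraries and highest in the 2 hypoxic ones.

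Because Id proteins act on E proteins, the summed levels per length were set side by side, as a description with no test. Id1, Id2 and Id3 together amounted to 585 and 481 FPKM in normoxic growth medium, 205 and 194 in differentiation medium under normoxia, 229 and 216 in growth medium under hypoxia, and 44.5 and 74.4 in differentiation medium under hypoxia. Tcf3 and Tcf12 together amounted to 113 and 117, 56.6 and 57.4, 79.2 and 79.9, and 60.4 and 61.7 FPKM in the same order. Id transcripts per transcript of these E protein genes therefore came to 5.16 and 4.10, 3.62 and 3.38, 2.89 and 2.70, and 0.737 and 1.21. Hypoxic differentiation medium had the lowest ratio and normoxic growth medium the highest, with no overlap between groups. Id3 made up 76.0% and 74.7% of the Id sum in normoxic growth medium and 30.9% and 35.0% in hypoxic differentiation medium, where Id2 made up 59.0% and 52.3%. These are levels of RNA, and other E protein genes are not in the sum.

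**Figure D3:**
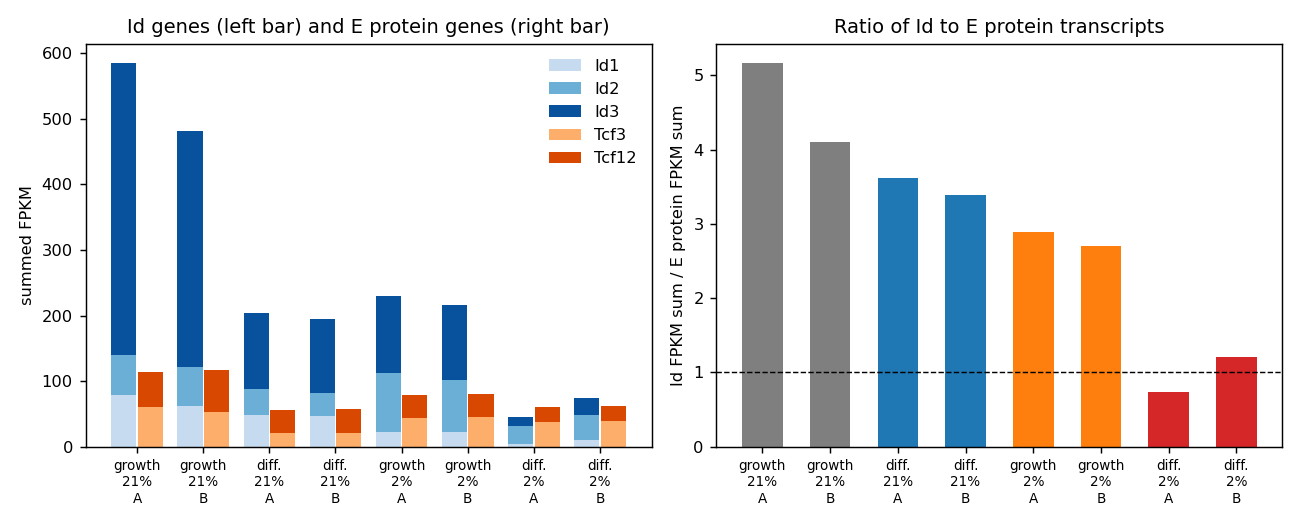
Left, FPKM of Id1, Id2 and Id3 stacked beside Tcf3 and Tcf12 stacked, for replicates A and B of growth and differentiation (diff.) medium at 21% and 2% oxygen; right, the ratio of the 2 sums, with a dashed line at 1. The ratio ran from 5.16 in normoxic growth medium replicate A to 0.737 in hypoxic differentiation medium replicate A.

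Myod1 itself, the partner of these proteins, averaged 123 ± 21.6 FPKM (SD, n = 2) in normoxic growth medium, 176 ± 6.35 in normoxic differentiation medium, 25.6 ± 0.743 in hypoxic growth medium and 9.38 ± 3.44 in hypoxic differentiation medium. Tcf3 and Tcf12 transcripts per Myod1 transcript were 0.817 and 1.09, 0.313 and 0.335, 3.16 and 3.06, and 8.69 and 5.22 in the same order of groups. Transcripts of Tcf3 and Tcf12 together were thus fewer than those of Myod1 in both normoxic differentiation libraries and more in all 4 hypoxic libraries. Other E protein genes are not in this sum either.

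Bhlhe40 rose with either switch. It was at 19.1 and 17.7 FPKM in normoxic growth medium, 68.8 and 60.1 in differentiation medium under normoxia, 100.2 and 101 in growth medium under hypoxia, and 121 and 107 in differentiation medium under hypoxia. The lowest library of each group was above the highest of the group before it. Hypoxia raised Bhlhe40 5.46-fold in growth medium (2.39 ± 0.10, adjusted p 2.56e-05) and 1.76-fold in differentiation medium (0.81 ± 0.10, adjusted p 0.000392). Differentiation raised it 3.51-fold in normoxia (1.75 ± 0.10, adjusted p 1.31e-05). In hypoxia, where the level was already high, the change on differentiation did not pass the threshold (0.18 ± 0.10, adjusted p 0.194, interval -0.058 to 0.41).

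Bhlhe41 was lower and reached its highest level where both switches were combined. It was at 13.3 and 12.5 FPKM in normoxic growth medium, 9.29 and 9.38 in differentiation medium under normoxia, 17.2 and 17.5 in growth medium under hypoxia, and 34.2 and 24.9 in differentiation medium under hypoxia. The replicates of the last group were further apart than those of any other group and still above all other libraries. Hypoxia raised Bhlhe41 3.16-fold in differentiation medium (1.55 ± 0.14, adjusted p 0.000116). In growth medium the difference of 1.34-fold was not called (0.40 ± 0.14, adjusted p 0.0637). It passed under upper-quartile scaling (0.56, adjusted p 0.0473), in a fit of the compared libraries alone (0.011), under array weights (0.00908), and without replicate A (0.00373) or B (0.00343) of hypoxic differentiation medium. Differentiation raised Bhlhe41 1.70-fold in hypoxia (0.72 ± 0.14, adjusted p 0.00881), a call that was lost without replicate A (adjusted p 0.0552) or B (0.0545) of hypoxic growth medium. In normoxia differentiation lowered it 1.38-fold (-0.43 ± 0.14, adjusted p 0.0341). That call was lost under 9 of 15 alternatives, which were median-of-ratios scaling (-0.18, adjusted p 0.421), upper-quartile scaling (-0.31, 0.176), no filter (0.0505) and each fit without 1 of the 6 libraries outside hypoxic differentiation medium (adjusted p 0.0612 to 0.131).

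Other HIF targets were read from a list of 12 further genes. Of all tested genes, 25.5% rose and 41% fell on differentiation in normoxia. With hypoxia 13.5% rose and 28% fell in growth medium, and 37.5% rose and 27.7% fell in differentiation medium. On differentiation in normoxia 7 of the 12 listed genes rose and 1 fell, and Adm (2.65 ± 0.12) and the angiogenic factor Vegfa (2.15 ± 0.15) were among those that rose. All 12 rose with hypoxia in growth medium and 11 in differentiation medium, with median log2 changes of 3.06 and 2.49. Adm, which encodes adrenomedullin, rose by 5.55 ± 0.12 (adjusted p 2.67e-06) and 3.81 ± 0.12 (adjusted p 1.06e-06) in the 2 media, and Ankrd37 by 4.61 ± 0.19 and 4.40 ± 0.19. Of 14 tested clock genes, 9 rose and none fell with hypoxia in growth medium, led by Ciart, a repressor of the clock activators (3.98 ± 0.16, adjusted p 2.51e-05). In differentiation medium 6 rose and 6 fell with hypoxia, with Dbp at 2.54 ± 0.30 and Cry2 at -1.99 ± 0.16. The clock count in growth medium was 5, all higher, without replicate A or B of hypoxic growth medium.

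**Figure D4:**
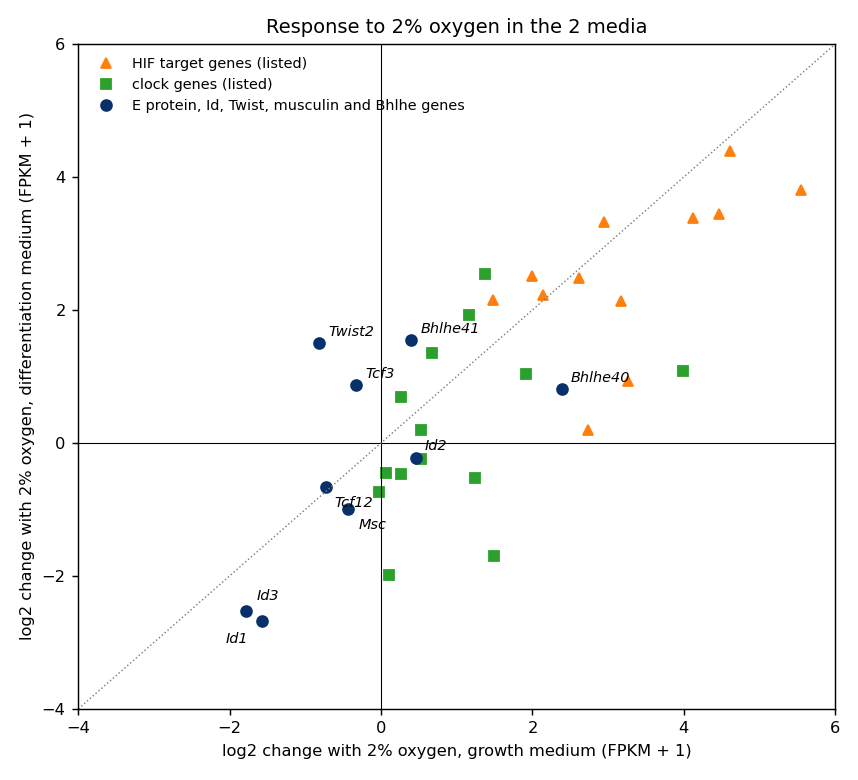
Log2 change of FPKM + 1 with 2% oxygen in growth medium (horizontal axis) and in differentiation medium (vertical axis) for the 9 tested genes (labelled circles), 12 listed HIF target genes (triangles) and 14 listed clock genes (squares); the dotted line marks equal change. Id1 and Id3 lie at the lower left, at -1.58 and -2.68 and at -1.79 and -2.53, while Twist2 and Tcf3 lie left of 0 and above it.

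Twist2 had the largest fall of the 9 on differentiation in normoxia. It was at 28.2 and 23.9 FPKM in normoxic growth medium, 2.97 and 2.64 in differentiation medium under normoxia, 13.9 and 14.7 in growth medium under hypoxia, and 9.77 and 9.78 in differentiation medium under hypoxia. As with Tcf3, the normoxic differentiation libraries were lowest. Twist2 fell 9.30-fold on differentiation in normoxia (-2.83 ± 0.11, adjusted p 2.76e-06) and 1.46-fold in hypoxia (-0.50 ± 0.11, adjusted p 0.012). The hypoxic call was lost without replicate A (adjusted p 0.0559) or B (0.0832) of hypoxic growth medium. Hypoxia lowered Twist2 1.82-fold in growth medium (-0.82 ± 0.11, adjusted p 0.00159) and raised it 3.49-fold in differentiation medium (1.5 ± 0.11, adjusted p 3.79e-05).

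Msc and Twist1 were near the limit of detection. Low values of these genes came in whole multiples of the worth of 1 fragment once relative depth was allowed for, with a largest distance of 2.5e-05 from a whole number over the 16 values. Msc was at 0.904 and 0.793 FPKM (22 and 25 fragments) in normoxic growth medium, 1.13 and 0.999 (27 and 30) in differentiation medium under normoxia, 0.385 and 0.339 (12 and 10) in growth medium under hypoxia, and 0.0285 and 0.0451 (1 and 1) in differentiation medium under hypoxia. By fragments per relative depth, Msc was 30.2-fold lower with hypoxia in differentiation medium (2 against 57 fragments, 95% exact counting interval 8.0 to 256) and 2.32-fold lower in growth medium (1.37 to 4.04). It was 10.4-fold lower on differentiation in hypoxia (2.55 to 91.0). In normoxia the level in growth medium was 0.796 times that in differentiation medium (0.529 to 1.19). These intervals cover counting error only. In limma the 3 differences were called, at -0.99 ± 0.086 (adjusted p 8.71e-05), -0.44 ± 0.086 (adjusted p 0.00747) and -0.39 ± 0.086 (adjusted p 0.0126), and the pseudocount shrinks each of them. With a pseudocount of 0.1 they were -3.09, -1.04 and -1.76. The call on differentiation in hypoxia was lost with array quality weights (adjusted p 0.0737) and without replicate A (0.0767) or B (0.0566) of hypoxic growth medium, and that for hypoxia in growth medium without replicate B of hypoxic growth medium (adjusted p 0.0503). In normoxia the change of Msc on differentiation was 0.16 ± 0.086 and not called (adjusted p 0.146), but it passed under median-of-ratios scaling (0.30, adjusted p 0.0199). Because of the filter, Msc was not tested without replicate A of normoxic differentiation medium.

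Twist1 was listed at 0 in 4 of the 8 libraries. It had 1 fragment in normoxic growth medium replicate B (0.0336 FPKM) and in each hypoxic growth library (0.0340 and 0.0360), and 4 in hypoxic differentiation replicate A (0.121). Twist1 could therefore not be compared between groups at this depth. The remaining Id gene, Id4, averaged at most 0.56 FPKM in any group.

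The difference between the changes on differentiation at 2% and at 21% oxygen was tested as an interaction. It passed for 5 of the 9 genes, Msc with the same condition among them, against 54.1% of all genes, 3 of them with a more positive change in hypoxia (background 35.4%) and 2 with a more negative one (18.7%). Twist2 (2.33 ± 0.15, adjusted p 6.11e-05), Tcf3 (1.20 ± 0.12, adjusted p 0.000278) and Bhlhe41 (1.15 ± 0.20, adjusted p 0.00347) were positive. Bhlhe40 (-1.58 ± 0.14, adjusted p 0.000183) and Msc (-0.55 ± 0.12, adjusted p 0.00881) were negative. The Id genes did not pass, with Id1 at -1.10 ± 0.39 (adjusted p 0.0515), Id2 at -0.68 ± 0.25 (0.055) and Id3 at -0.74 ± 0.37 (0.135). After median-of-ratios or upper-quartile scaling, with array quality weights, or without replicate B of hypoxic differentiation medium, all 3 passed and the count was 8, 3 positive and 5 negative. Id1 and Id2 also passed without replicate A of that group (adjusted p 0.021 and 0.0426), and Id1 with a pseudocount of 0.1 (0.0495). Of all genes called, 65.5% were positive, against 47.3% and 53.6% under the 2 scalings. The interaction of Tcf12 was 0.062 ± 0.14 (adjusted p 0.737), with an interval of -0.28 to 0.40, and its direction flipped under both scalings (-0.26 and -0.16).

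Levels were ranked within each group. In normoxic growth medium Id3 led, and Id1, Id2, Tcf12 and Tcf3 followed between 57.0 and 70.2 FPKM on average, each overlapping the next. In normoxic differentiation medium the order was Id3, Bhlhe40, Id1, Id2, Tcf12, Tcf3, Bhlhe41, Twist2 and Msc, with overlap of Id2 (35.6 to 39.5) and Tcf12 (35.7 to 36.9) alone. Hypoxic growth medium had Id3, Bhlhe40, Id2, Tcf3, Tcf12, Id1, Bhlhe41, Twist2 and Msc, with no overlap between neighbours. In hypoxic differentiation medium Bhlhe40 led, ahead of Tcf3, Id2, Bhlhe41, Tcf12, Id3, Twist2 and Id1. There Id2 overlapped Tcf3 and Bhlhe41, and Id3 overlapped Tcf12 and Bhlhe41.

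For each tested gene the most similar profile over the 8 libraries was sought among genes reaching a mean of 10 FPKM in a group. The highest Pearson r of log2(FPKM + 1) was with Rusc2 for Bhlhe40 (0.997), Kdm5c for Bhlhe41 (0.989), Bcar3 for Id1 (0.994), Whrn for Id2 (0.981), Bgn for Id3 (0.997), S1pr2 for Twist2 (0.999), Ppp1r14c for Msc (0.997), Emp3 for Tcf3 (0.998) and Alpk1 for Tcf12 (0.991). Bgn, which encodes the matrix proteoglycan biglycan, went from 755 ± 50.4 FPKM in normoxic growth medium to 303 ± 24.0, 350 ± 10.2 and 97.7 ± 30.7 in normoxic differentiation, hypoxic growth and hypoxic differentiation medium. The values describe 4 groups of 2 libraries that share their depth and their group means, and each is the best of 7864 or 7865 candidates.

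Genes around these proteins were read from further lists. As background for the list counts, 25.5% of all tested genes rose and 41% fell on differentiation in normoxia. In hypoxia 23.3% rose and 17.6% fell. With hypoxia 13.5% rose and 28% fell in growth medium, and 37.5% rose and 27.7% fell in differentiation medium. Of 15 tested other bHLH genes, 5 rose and 9 fell on differentiation in normoxia, 3 rose and 5 fell in hypoxia, 4 rose and 5 fell with hypoxia in growth medium, and 6 rose and 6 fell in differentiation medium. Atoh8 fell on differentiation in both oxygen levels (-1.68 ± 0.11, adjusted p 2.4e-05, and -1.96 ± 0.11, adjusted p 0.000177). Hey1, a Notch target, rose with hypoxia in growth medium (1.46 ± 0.12, adjusted p 0.000277) and fell on differentiation in hypoxia (-1.24 ± 0.12, adjusted p 0.000763). Heyl fell with hypoxia in both media (-1.99 ± 0.11 and -2.97 ± 0.11), and Mxi1, which antagonises Myc, rose (1.99 ± 0.15 and 2.5 ± 0.15). The 8 calls for differentiation in hypoxia became 5 in a fit of the compared libraries alone or under array weights, and 4 without replicate A or B of hypoxic growth medium.

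Of 12 tested repressors outside the bHLH family, 3 rose and 6 fell on differentiation in normoxia and 1 rose and 6 fell in hypoxia. With hypoxia, 1 rose and 5 fell in growth medium, and 5 rose and 4 fell in differentiation medium. Mdfi, whose product I-mfa binds MyoD family proteins, rose on differentiation in normoxia (1.84 ± 0.24, adjusted p 0.000611) and was lower with hypoxia in differentiation medium (-2.99 ± 0.24, adjusted p 6.44e-05). Zeb1, an E-box repressor, was also lower there (-1.71 ± 0.10, adjusted p 1.65e-05). The 7 calls for differentiation in hypoxia became 4 without replicate B of hypoxic growth medium, and the 6 for hypoxia in growth medium became 3 without replicate A or B of hypoxic growth medium.

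BMP signals induce Id genes through SMAD proteins, so ligands, receptors, antagonists and feedback genes of BMP and TGF-beta were listed. Of 16 tested, 6 rose and 7 fell on differentiation in normoxia, and none rose and 8 fell in hypoxia. With hypoxia 2 rose and 3 fell in growth medium, and 5 rose and 6 fell in differentiation medium. Grem1, a secreted BMP antagonist, averaged 151 FPKM in normoxic growth medium, 10.5 in normoxic differentiation medium, 625 in hypoxic growth medium and 113 in hypoxic differentiation medium. It rose with hypoxia in both media (2.05 ± 0.12, adjusted p 9.84e-05, and 3.31 ± 0.12, adjusted p 2.25e-06). Bmp4 (-1.08 ± 0.10) and the SMAD inhibitor gene Smad6 (-1.03 ± 0.14) fell on differentiation in hypoxia, and Fst, encoding the activin and myostatin antagonist follistatin, rose on differentiation in normoxia (4.35 ± 0.54, adjusted p 0.000453). For differentiation in hypoxia the 8 calls became 5 with only the libraries compared or without replicate A of hypoxic growth medium, and 4 without replicate B. For hypoxia in growth medium the 5 calls became 3 without replicate A of normoxic or replicate B of hypoxic growth medium, and 8 without either replicate of hypoxic differentiation medium.

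Of 20 tested target genes of MyoD and E proteins, 19 rose on differentiation in normoxia, with a median log2 change of 5.51. In hypoxia 10 rose and 1 fell, with a median of 0.58, and those 11 calls became 6 with only the libraries compared or without replicate A of hypoxic growth medium and 5 without replicate B. With hypoxia 1 rose and 16 fell in growth medium (median -1.53), and all 20 fell in differentiation medium (median -6.66).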

How the data were processed

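The authors deposited 1 gene table with a column of FPKM values for each of the 8 RNA-seq libraries. Per the submitters' processing notes, STAR 2.5.1b, Cufflinks 2.2.1 and build mm9 were used. The annotation, the strand setting and any scaling between libraries are not given in the sources used here. Per the labels' protocols, libraries were stranded total RNA. RefSeq places the long noncoding genes 0610040F04Rik over Bhlhe40, Gm46117 over Twist2 and Gm9947 over Msc, so reads of overlapping transcripts may not be told apart. The 8 H3K27me3 and 8 input libraries were not analysed here.

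limma 3.58.1 (R 4.3.3) was fitted to log2(FPKM + 1) of all 8 libraries with 4 group means and a trended prior, which left 4 residual and 2.61 prior degrees of freedom. Tests were two-sided, with Benjamini-Hochberg adjustment over the 12389 genes tested. Changes of genes near 1 FPKM are understated on this scale. P-values rest on the spread between replicates pooled over the 4 groups, so a gene has the same SE in each comparison of 2 groups. Replicates of hypoxic differentiation medium differed most over the whole table. That SE can therefore be too small for comparisons with this group and too large for those without it. The independence of the replicates beyond the word biological is not described. Relative depth was read from the ratio of the smallest steps between libraries at values under 0.5 FPKM; absolute depth is unknown. The 10 genes and the gene lists were chosen with earlier results of these data known. All 10 were named, with the most similar gene of each and at most 3 called genes with the largest change per list and comparison. Single marker genes, Id4, Mki67 and Ccnb1 were named in addition. Mki67 and Ccnb1 were in none of the lists. Alternatives were a pseudocount of 0.1, no filter, 2 scalings, only the libraries compared, a replicate block, array quality weights and leaving out each library.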

Additional observations from a re-analysis of the deposited data

Results flagged for a closer look

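For 5 genes the change on differentiation differed between the oxygen levels by the test of the difference itself, limma's interaction term. Over all tested genes 54.1% passed that test, so 5 of 9 is near the background and says nothing particular about these genes. Twist2 changed by -2.83 in normoxia and -0.50 in hypoxia on the log2 scale, an interaction of 2.33 ± 0.15 (SE, adjusted p 6.11e-05). Tcf3 changed by -1.42 and -0.22, an interaction of 1.20 ± 0.12 (adjusted p 0.000278). Bhlhe41 changed by -0.43 and 0.72, an interaction of 1.15 ± 0.20 (adjusted p 0.00347). Bhlhe40 changed by 1.75 and 0.18, an interaction of -1.58 ± 0.14 (adjusted p 0.000183). Msc changed by 0.16 and -0.39, an interaction of -0.55 ± 0.12 (adjusted p 0.00881), which rests on 1 fragment in each hypoxic differentiation library. Msc passed the filter on low values only through normoxic differentiation medium, where it is highest, an arm of this test, so its call is given as a description. These 5 calls held under every alternative that could be fitted.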

How the results depend on the processing

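Of the 45 tested changes (9 genes in 5 comparisons), 34 were called and 27 of those kept direction and call under all alternatives fitted. None of the 34 changed direction. Msc, tested only through the group where it is highest, is in these totals and in the counts below. Its part in them is a description and not support. The number of genes called ranged, with 1 library left out, from 5 to 8 for differentiation in normoxia (7 with all), 4 to 8 for differentiation in hypoxia (7), 5 to 9 for hypoxia in growth medium (7), 7 to 9 for hypoxia in differentiation medium (8) and 4 to 8 for the interaction (5). The interaction count was 8 after median-of-ratios scaling, upper-quartile scaling and array quality weights. The cause was not tested. Uncalled changes that turned direction were Id2 with hypoxia in differentiation medium, at 0.052 without replicate A of hypoxic differentiation medium (-0.50 to 0.052 with 1 library left out), and the interaction of Tcf12, at -0.26 under median-of-ratios scaling, -0.16 under upper-quartile scaling and -0.078 without replicate B of normoxic growth medium (-0.078 to 0.20 with 1 library left out). With a replicate block of the letters A and B the 5 counts were 7, 7, 7, 8 and 5, as without it. The letters share a name only: differences between A and B correlated across genes at -0.17 to 0.04 between groups. Crossed letters, tried after the data were seen because of values under -0.1, gave 3 calls for differentiation in hypoxia and 8 for hypoxia in growth medium with only those libraries. The interaction has no fit limited to the libraries compared, since it uses all 8. Without replicate A or B of hypoxic growth medium the genes called over the whole table fell from 5073 to 2688 or 2501 for differentiation in hypoxia (3034 with only the libraries compared), and from 5135 to 2997 or 3083 for hypoxia in growth medium. Depth limits Twist1 and Msc.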
